A study of Mus musculus with 6 samples.

Results

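Genes of the families named for enzymes that add or remove methyl and acetyl groups on histone lysines were studied here in a mouse leukemia. Samples after 3 days of Pax5 restoration were compared with untreated samples. Some of these genes, such as Setd3, Setd6 and Hdac10, are known for other substrates, as stated below. Members were the protein-coding genes of the deposited count table whose mouse symbol begins with Kmt, Kdm, Setd, Kat, Hdac or Sirt and then a number, together with Setdb1 and Setdb2 and without the katanins. This gave 62 genes of 26286 in the table, of which 8 were Kmt, 10 Setd (the Setdb pair included), 18 Kdm, 8 Kat, 11 Hdac and 7 Sirt genes. The rule used names, not measured values.

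RNA was sequenced from 6 samples of 1 B-progenitor acute lymphoblastic leukemia, named A024 and labelled tri-transgenic, which had been grown in Rag1 knockout mice. The 3 dox libraries came from mice fed doxycycline (dox) for 3 days, and their leukemia cells were sorted from the bone marrow as GFPmid. The 3 untreated libraries came from leukemic mice without dox, and their cells were sorted as GFPhigh, so that treatment and sort gate cannot be told apart. By the series' design each group was a set of triplicate mice, so p-values measure the spread between mice that carry the same leukemia and not between leukemias. As background, published leukemias of this kind carry a constitutively active Stat5 transgene, a tetracycline transactivator driven by the Vav promoter, and a transactivator-dependent hairpin against Pax5 coupled to GFP, so that dox shuts off both the hairpin and GFP. The Rag1 knockout hosts lack mature B and T cells of their own but keep their myeloid and natural killer cells. No dox-treated cells without the hairpin were analysed here, so effects of dox itself cannot be told apart from those of Pax5.

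Histone lysines are written by methyltransferases, which take the methyl group from S-adenosylmethionine, and by acetyltransferases, which take the acetyl group from acetyl-CoA. Demethylases of the LSD type use a flavin and those of the Jumonji type use iron and 2-oxoglutarate, while deacetylases use zinc (the Hdac genes) or NAD+ (the sirtuins). Most of these enzymes act inside large complexes, and several, Kmt2d and the acetyltransferase Crebbp among them, are recurrently mutated in human lymphoid cancers. In B-cell progenitors, Pax5 is known to recruit both activating and repressing chromatin complexes to its target genes.

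Levels are given as CPM, counts scaled to the size of the library, always in the order of replicates 1, 2 and 3. Pax5, the transcription factor that commits progenitors to the B lineage, had 227, 281 and 231 CPM in the dox libraries, against 154, 93.5 and 105 CPM in the untreated libraries. All dox libraries lay above all untreated libraries (log2 fold change 1.07, SE 0.17, edgeR adjusted p = 0.000695). Total counts ran from 14432213 to 15612435 in the dox libraries and from 14185203 to 15053258 in the untreated libraries. The defining markers of the B lineage fitted the labelled cell type, and their 8 genes summed to between 7736 and 8402 CPM in the dox libraries, against 4611 to 4698 CPM in the untreated libraries. Vpreb1, part of the surrogate light chain of the pre-B cell receptor, was among the most abundant of them. Markers of other marrow cells moved with the groups as well. The 7 neutrophil markers, led by S100a9 and S100a8, summed to 486, 103 and 231 CPM in dox replicates 1, 2 and 3, against 104, 81.1 and 95.7 CPM in the untreated replicates. All 6 that could be tested were called higher, against 27.0% of all genes tested. Of these 6, S100a9, S100a8 and Camp overlapped between the groups, while Ngp, Ltf and Mpo did not. The 8 macrophage markers, led by Lyz2 and Mpeg1, summed to 117, 46.3 and 61.8 CPM in the dox libraries, against 29.1, 21.2 and 28.4 CPM in the untreated libraries, and 7 of 8 were called higher. Among these 8, only Lyz2 overlapped between the groups. T cell markers, led by Cd4 and Cd3d, summed to less than 1 CPM in every library of either group, with Cd3e, Cd8a and Trat1 at 0 throughout. Erythroid markers, led by Hbb-b1 and Hba-a1, summed to between 1.18 and 6.91 CPM in the dox libraries and 3.62 and 5.23 CPM in the untreated libraries, and natural killer markers, led by Klrb1c and Prf1, to between 3.36 and 9.88 CPM in the dox libraries and 3.29 and 5.64 CPM in the untreated libraries. The stroma list (Col1a1, Cxcl12) reached at most 3.69 CPM in dox and 2.31 CPM in untreated libraries, and the megakaryocyte list (Itga2b, Gp1bb) stayed under 1 CPM. The plasma cell list (Mzb1, Xbp1) summed to 837 to 906 CPM in dox and 797 to 963 CPM in untreated libraries, with 3 of its 5 genes higher and 2, Jchain (-1.72 on the log2 scale) and Sdc1 (-1.55), lower. The endothelium list (Pecam1, Cdh5), nearly all of it Pecam1, summed to 128 to 157 CPM in dox and 93.7 to 101 CPM in untreated libraries. The part of admixed cells in the results was not tested. In such bulk samples a difference in the share of a cell type and a difference in RNA per cell cannot be told apart.

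Of the 62 genes, 60 had enough counts for a test. Dox libraries showed higher expression of 28 (46.7%) and lower expression of 13 (21.7%), while 19 did not pass the threshold (edgeR quasi-likelihood test, Benjamini-Hochberg adjusted p under 0.05 over 12275 genes). Of all genes tested, 53.6% were called, 27.0% higher and 26.6% lower, so the enzymes' share of higher calls was above the background and their share of lower calls somewhat under it. This background is over genes of all lengths, and both of its shares changed with gene length, as given below. The median log2 fold change was 0.23 over the 60 enzymes and 0.01 over all genes tested. Of the 60, 10 rose by at least 1.5-fold (16.7%, against 14.5% of all genes tested), and Setd6 alone fell by that much (1.67%, against 11.8%). In 28 enzymes every dox library lay above every untreated library (31.2% of all genes tested), in 14 every dox library lay below (31.0%), and in 18 the groups overlapped. Per length, the enzymes summed to 1491 ± 42.3 RPKM (counts per kilobase of gene length, scaled to library size as for CPM) in dox libraries and 1352 ± 19.2 RPKM in untreated libraries (SD, n = 3 each). The 2 genes that were not tested were Kdm4d, with 3, 1 and 3 counts in the dox libraries and 0, 1 and 2 in the untreated libraries, and the Y-linked Kdm5d, with at most 1 count in any library.

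**Figure D1:**
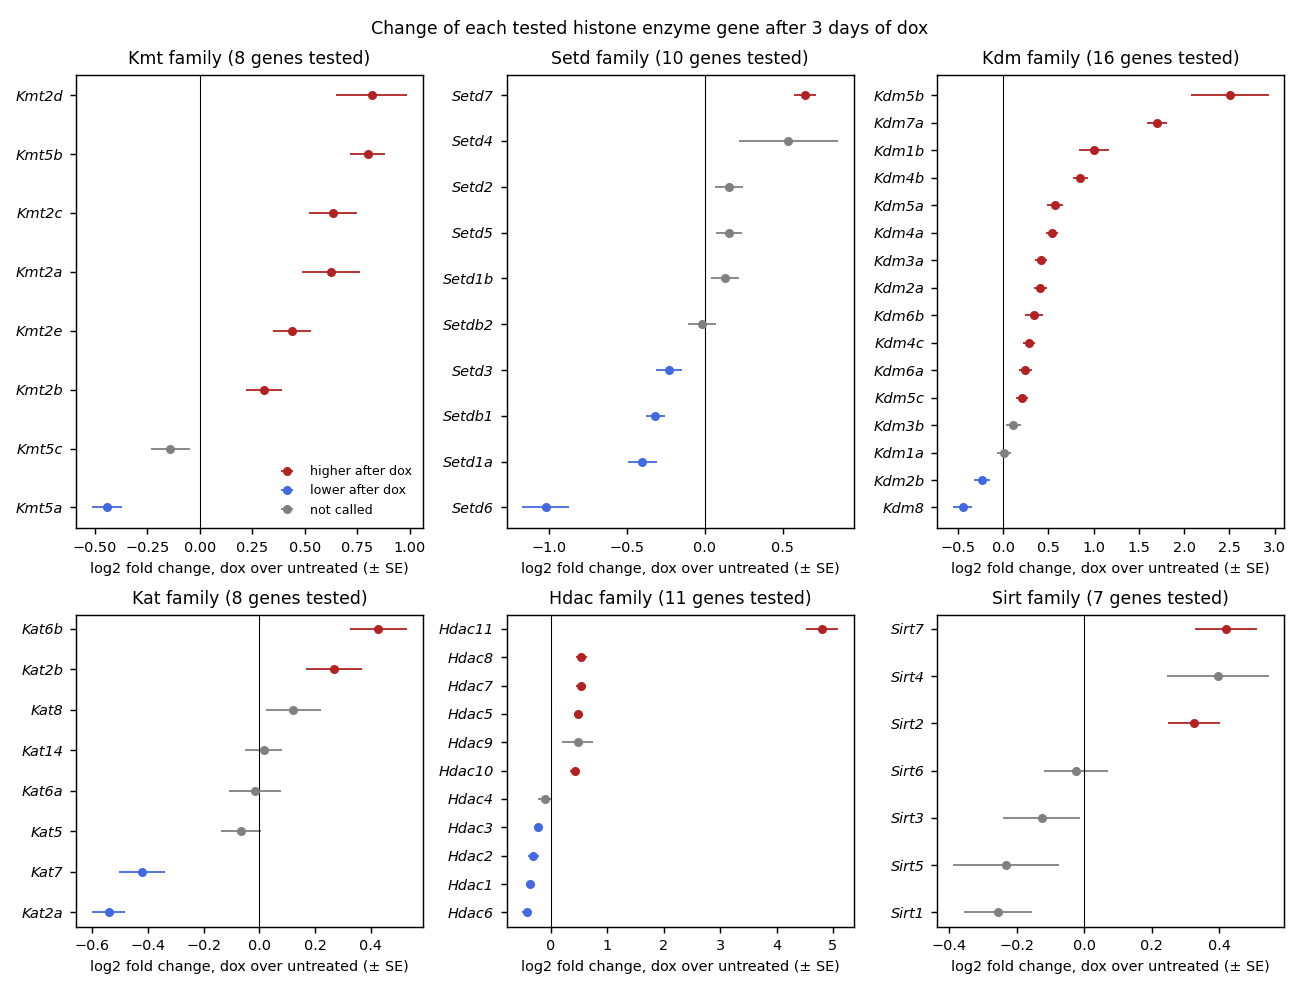
Log2 fold change (dox over untreated) of the 60 tested enzyme genes by family, with points at the edgeR estimate and bars for the standard error; red marks genes called higher, blue genes called lower and grey genes not called, and each panel has its own scale. Kmt and Kdm genes lie mostly to the right of 0, Setd, Kat and Sirt genes scatter around it, and Hdac11 stands farthest out at 4.81.

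Promoter sequences of 4 members are shown for reference, because Hdac11, Kdm7a and Kat2a had the smallest p of their families and Setd6 had the largest fall of all members. The choice was made after their values were seen. Each run is the 250 bases before the annotated start in RefSeq, read 5′ to 3′ on the gene's strand of GRCm38.p6, with CG dinucleotides, the sites of mammalian DNA methylation, in capitals. The Hdac11 window was chr6:91156565-91156814 (+), Kdm7a was chr6:39206774-39207023 (−), Setd6 was chr8:95715663-95715912 (+) and Kat2a was chr11:100712468-100712717 (−).
Hdac11: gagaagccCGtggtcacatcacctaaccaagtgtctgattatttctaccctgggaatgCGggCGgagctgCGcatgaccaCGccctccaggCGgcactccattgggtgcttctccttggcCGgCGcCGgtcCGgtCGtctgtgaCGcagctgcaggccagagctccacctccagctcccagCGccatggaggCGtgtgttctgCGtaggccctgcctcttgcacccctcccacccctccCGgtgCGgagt
Kdm7a: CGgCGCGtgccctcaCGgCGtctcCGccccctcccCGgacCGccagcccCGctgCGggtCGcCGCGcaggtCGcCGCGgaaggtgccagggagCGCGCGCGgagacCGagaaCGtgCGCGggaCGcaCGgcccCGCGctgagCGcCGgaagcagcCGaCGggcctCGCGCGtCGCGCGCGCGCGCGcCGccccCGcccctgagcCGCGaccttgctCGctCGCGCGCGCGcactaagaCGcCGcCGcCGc
Setd6: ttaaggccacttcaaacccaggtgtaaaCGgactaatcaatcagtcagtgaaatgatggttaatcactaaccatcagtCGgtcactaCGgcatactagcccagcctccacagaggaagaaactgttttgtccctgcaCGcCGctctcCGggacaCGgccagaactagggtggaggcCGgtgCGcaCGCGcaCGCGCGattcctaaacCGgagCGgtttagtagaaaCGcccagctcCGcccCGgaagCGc
Kat2a: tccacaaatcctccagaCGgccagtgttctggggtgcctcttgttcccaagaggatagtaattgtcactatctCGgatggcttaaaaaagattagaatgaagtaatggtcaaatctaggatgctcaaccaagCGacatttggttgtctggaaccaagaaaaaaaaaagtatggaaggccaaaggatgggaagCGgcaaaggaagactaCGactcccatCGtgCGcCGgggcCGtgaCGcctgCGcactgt
The Kdm7a window held 56 CG dinucleotides and was 82.0% G or C, the Hdac11 window held 17 (65.2%), the Setd6 window 20 (56.4%) and the Kat2a window 11 (48.8%). Promoters in the RefSeq table were found for 50 of the 62 members, 70 in all. The median number of CG dinucleotides per 250 bases was 16 over 30 promoters of members that rose, 20 over 17 promoters of members that fell and 18 over 21 promoters of members not called. Across the tested genes of the table the medians were 13 for genes that rose, 17 for genes that fell and 16 for genes not called, in the same order as in the enzyme genes.

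A set of 3 motifs was searched on both strands of the 300 bases around each start. An E2F-type motif (TTTCCCGC, TTTGGCGC or TTTCGCGC, counted once a promoter) was in 0 of 30 promoters of members that rose, 0 of 17 of members that fell and 2 of 21 of members not called, which were those of Kmt5c and Sirt4. It was in 1.84% of all 32851 promoters. Among promoters of tested genes the share was 1.33% for genes that rose, 6.67% for genes that fell and 3.34% for genes not called. The E-box CACGTG was in 3 of 30 promoters of members that rose, 0 of 17 of members that fell and 2 of 21 of members not called, against 7.15% of all promoters. Among promoters of tested genes it was in 9.17% for genes that rose, 12.5% for genes that fell and 9.30% for genes not called. The cyclic-AMP element TGACGTCA was in no member's promoter and in 1.79% of all. A match is a description of letters, and a missing match says only that these letters were not in this window.

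The lysine methyltransferases of the Kmt family rose as a group: 6 of 8 tested genes were higher after dox (75.0%, against 27.0% of all genes), 1 was lower and 1 was not called, with a median log2 fold change of 0.53. Kmt5b, which builds the di- and trimethylated states of histone H4 lysine 20, had 149.9, 172 and 142 CPM in the dox libraries, against 93.7, 84.7 and 88.0 CPM in the untreated libraries. All dox libraries were above all untreated ones (log2 fold change 0.80, SE 0.08, edgeR adjusted p = 6.75e-05). Kmt5a, the enzyme that places the first methyl group on the same lysine and is known for its tie to the cell cycle, moved the other way. It had 117, 104 and 120.0 CPM in the dox libraries, against 152, 159 and 153 CPM in the untreated libraries, again without overlap (log2 fold change -0.44, SE 0.07, edgeR adjusted p = 0.000738). Kmt5c, the paralog of Kmt5b, was not called (log2 fold change -0.14, edgeR adjusted p = 0.238).

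The large Mll-type genes rose together. Kmt2d, a methyltransferase of histone H3 lysine 4 at enhancers, had 492, 630.3 and 370.3 CPM in the dox libraries, against 316, 276 and 254 CPM in the untreated libraries. Dox replicate 2 was the highest and dox replicate 3 the lowest of its group, and all lay above the untreated libraries (log2 fold change 0.82, SE 0.17, edgeR adjusted p = 0.00301). Kmt2c, its paralog at enhancers, had 352, 445 and 329 CPM in the dox libraries, against 229, 264 and 232 CPM in the untreated libraries, with the same order of the dox libraries (log2 fold change 0.63, SE 0.11, edgeR adjusted p = 0.00145). Kmt2a, the gene rearranged in a class of human leukemias, had 484, 601 and 393 CPM in the dox libraries, against 336, 329 and 292 CPM in the untreated libraries and was added to the account after its values were seen (log2 fold change 0.63, SE 0.14, edgeR adjusted p = 0.00415). Kmt2e, an Mll-type protein for which no clear histone methyltransferase activity is known, had 303, 364 and 302 CPM in the dox libraries, against 222, 254 and 238 CPM in the untreated libraries, without overlap (log2 fold change 0.44, SE 0.09, edgeR adjusted p = 0.00311). In the GENCODE models 9.3% of its exon bases are shared with Srpk2 on the opposite strand, and the strand setting of the counting is not given. Kmt2b had the smallest rise of the family (log2 fold change 0.31, SE 0.09, edgeR adjusted p = 0.0134), and its call was lost without untreated replicate 1 or 3. Together Kmt2a to Kmt2d summed to 102, 122 and 84.9 RPKM in the dox libraries, against 69.6, 71.6 and 64.9 RPKM in the untreated libraries.

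These are among the longest transcripts measured, and length moved with the change. Of 182 tested genes over 10 kb, 50.0% were called higher and the median log2 fold change was 0.32, while of 4392 genes under 2 kb 19.8% were called higher and the median was -0.07. Of genes of 5 to 10 kb, 18 members among them, 36.3% were called higher and 19.9% lower. For genes of 2 to 5 kb, with 27 members, these shares were 29.0% and 26.7%. Median length was 4211.5 bases over the 60 members and 2619 bases over all genes tested. All 4 members over 10 kb, namely Kmt2a, Kmt2c, Kmt2d and Kdm5a, rose. Genes over 10 kb other than the members held 2.84%, 3.31% and 2.78% of all counts in dox replicates 1, 2 and 3, against 2.55%, 2.73% and 2.60% in the untreated replicates, so dox replicate 2 was the highest here too. With a length trend removed in each library, Kmt2d had a log2 fold change of 0.46, Kmt2a of 0.32, Kmt2c of 0.32 and Kmt5b of 0.64, all still called, and Kmt2b was no longer called (log2 fold change 0.16, edgeR adjusted p = 0.0753). The median of the Kmt genes was then 0.32, that of the Kdm genes 0.26, that of all 60 enzymes 0.16 and that of the Setd genes -0.03, against 0.06 before. With length and GC content removed together, Kmt2d had 0.37, Kmt2c 0.36 and Kmt2a 0.30, all still called, the median of all 60 enzymes was 0.12 and that of the Setd genes -0.03. Spearman's rho between length and log2 fold change was 0.43 across the 60 enzymes and 0.13 across all 12275 genes, which are not independent replicates and share these 6 libraries. The part of transcript length in the rise was not tested beyond these values.

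**Figure D2:**
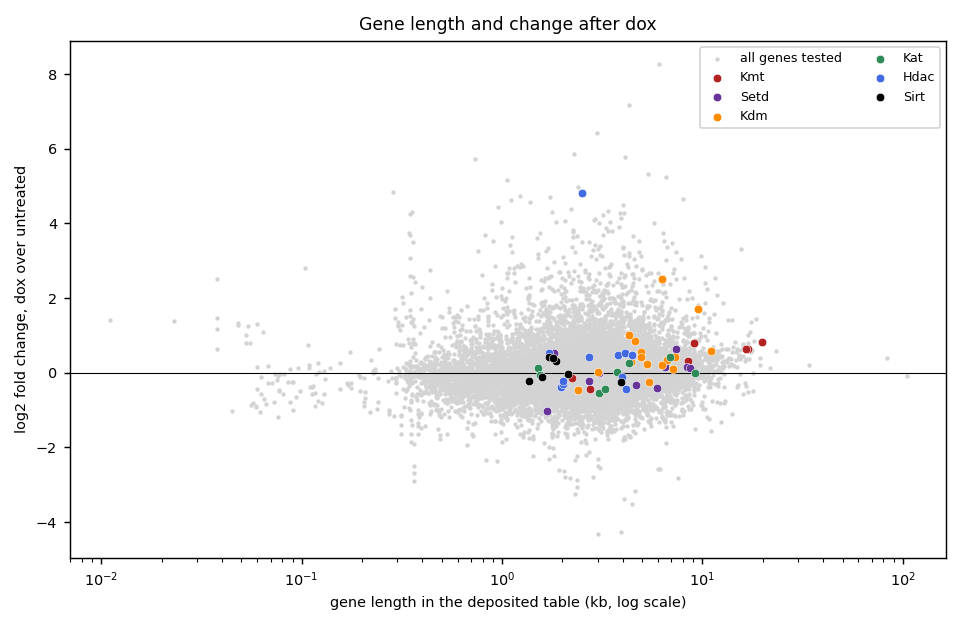
Gene length in the deposited table (kb, log scale) against log2 fold change (dox over untreated) for all tested genes (light grey) and the 60 enzymes coloured by family. The 4 members over 10 kb (Kmt2a, Kmt2c, Kmt2d and Kdm5a) all lie above 0, and the median over all 182 genes of that length was 0.32.

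The Setd genes went the other way more often than the Kmt genes: of 10 tested, 4 were lower (40.0%, against 26.6% of all genes), 1 was higher and 5 were not called, with a median of 0.06 that turned to -0.03 with the length trend removed. Setd7, which methylates histone H3 lysine 4 and many proteins that are not histones, was the one that rose. It had 138, 151 and 139 CPM in the dox libraries, against 89.7, 97.3 and 87.4 CPM in the untreated libraries, without overlap (log2 fold change 0.64, SE 0.07, edgeR adjusted p = 9.96e-05). Setd6, known mainly for methylating proteins that are not histones, such as the NF-kB subunit RelA, had 5.73, 6.68 and 5.19 CPM in the dox libraries, against 11.2, 11.3 and 13.3 CPM in the untreated libraries. It was the member with the largest fall, and the groups lay far apart (log2 fold change -1.02, SE 0.15, edgeR adjusted p = 0.000425). Setdb1, which trimethylates histone H3 lysine 9 and silences retroelements, had 115, 113 and 112 CPM in the dox libraries, against 137, 145 and 141 CPM in the untreated libraries. Its dox libraries lay close together and below all untreated libraries (log2 fold change -0.32, SE 0.06, edgeR adjusted p = 0.00190). Setd1a, the catalytic subunit of the promoter-bound Set1 complex, had 121, 137 and 113 CPM in the dox libraries, against 145, 173 and 171 CPM in the untreated libraries, also without overlap (log2 fold change -0.40, SE 0.10, edgeR adjusted p = 0.00628). In the GENCODE models 51.8% of its exon bases are shared with another protein-coding model, Gm49388, on the same strand, so its counts depend on how such reads were assigned. Setd3, an actin histidine methyltransferase, had 62.7, 62.0 and 73.6 CPM in the dox libraries, against 80.2, 75.4 and 76.9 CPM in the untreated libraries, without overlap (log2 fold change -0.23, SE 0.08, edgeR adjusted p = 0.0441), and this smallest fall was lost in 7 of 16 alternative settings, 5 of which left out a library (any but dox replicate 3). Setd2, the main enzyme of histone H3 lysine 36 trimethylation, was among the genes not called (log2 fold change 0.16), with Setd1b (0.13), Setd5 (0.15), Setdb2 (-0.02) and Setd4 (0.54, edgeR adjusted p = 0.185), which was called higher without untreated replicate 3.

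Demethylases mostly rose. Of 16 tested Kdm genes, 12 were higher after dox (75.0%, against 27.0% of all genes), 2 were lower and 2 were not called, with a median of 0.37. Summed over the family, RPKM was 367 ± 1.58 in dox libraries and 296 ± 8.70 in untreated libraries (SD, n = 3 each). Kdm7a, a Jumonji enzyme that removes methyl groups from histone H3 lysines 9 and 27, had 59.4, 58.2 and 65.1 CPM in the dox libraries, against 21.0, 15.7 and 19.6 CPM in the untreated libraries. The dox libraries were close together and far above every untreated library (log2 fold change 1.70, SE 0.11, edgeR adjusted p = 7.66e-06), a difference of 3.24-fold.

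Of the Kdm4 genes, which remove methylation from histone H3 lysines 9 and 36, all 3 that were tested rose. Kdm4b had 86.3, 82.9 and 73.4 CPM in the dox libraries, against 47.8, 43.5 and 43.1 CPM in the untreated libraries (log2 fold change 0.85, SE 0.09, edgeR adjusted p = 5.28e-05). Kdm4a had 180.0, 169.5 and 172 CPM in the dox libraries, against 112, 123 and 123 CPM in the untreated libraries (log2 fold change 0.54, SE 0.07, edgeR adjusted p = 0.000168). The groups did not overlap in either gene, and Kdm4c had the smallest rise (log2 fold change 0.28, edgeR adjusted p = 0.00779). Kdm3a, which removes mono- and dimethylation from lysine 9, had 117, 124 and 125 CPM in the dox libraries, against 92.9, 93.9 and 87.0 CPM in the untreated libraries, without overlap (log2 fold change 0.42, SE 0.07, edgeR adjusted p = 0.000695), while its paralog Kdm3b was not called (0.11).

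The Kdm5 genes erase lysine 4 methylation and so oppose the Kmt2 enzymes, and the 3 that were tested (Kdm5a, Kdm5b and Kdm5c) rose. Kdm5a had 201, 239 and 234 CPM in the dox libraries, against 144, 162 and 148 CPM in the untreated libraries, without overlap (log2 fold change 0.57, SE 0.08, edgeR adjusted p = 0.000460; 0.37 with the length trend removed). Kdm5b was hardly expressed and was added after its values were seen. It had 63, 25 and 61 counts in the dox libraries, against 9, 5 and 11 counts in the untreated libraries (log2 fold change 2.51, SE 0.43, edgeR adjusted p = 0.00106). Dox replicate 2 was the lowest of its group, as for Kdm1b, and still lay above all untreated libraries. Its mean level after dox, 0.518 RPKM, remained far under that of Kdm5a (20.5 RPKM) and of Kdm5c (46.4 RPKM). Kdm5c rose slightly (log2 fold change 0.21; 0.11 with the length trend removed), and that call was lost in 6 of 16 alternative settings, among them those without dox replicate 1 and without untreated replicate 1 or 3.

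Kdm1b, a flavin-dependent demethylase of lysine 4, was likewise added after its values were seen and had 107, 62.8 and 86.0 CPM in the dox libraries, against 45.0, 40.1 and 42.1 CPM in the untreated libraries. The groups did not overlap, and the dox libraries differed widely among themselves (log2 fold change 1.01, SE 0.17, edgeR adjusted p = 0.000824). Their order, with replicate 1 highest and replicate 2 lowest, was that of the neutrophil and macrophage sums. In dox replicate 2 the neutrophil sum of 103 CPM lay inside the untreated range and the macrophage sum of 46.3 CPM above it, and the part of these cells in the Kdm1b rise was not tested. Kdm1b shares 9.2% of its exon bases with Dek on the opposite strand, and the strand setting of the counting is not given. Its paralog Kdm1a, the better known LSD enzyme of repressor complexes, had a log2 fold change of 0.007 and was not called. Among the remaining Kdm genes, Kdm2a (0.41), Kdm6a (0.24) and Kdm6b (0.34) rose on the log2 scale, while Kdm8 (-0.45) and Kdm2b (-0.24) fell. The call of Kdm6a was lost without dox replicate 2 and without untreated replicate 1 or 2, that of Kdm6b without untreated replicate 2, that of Kdm5c and of both Kdm6 genes with the length trend removed, and that of Kdm2b without dox replicate 1 or 3 and without untreated replicate 2 or 3.

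**Figure D3:**
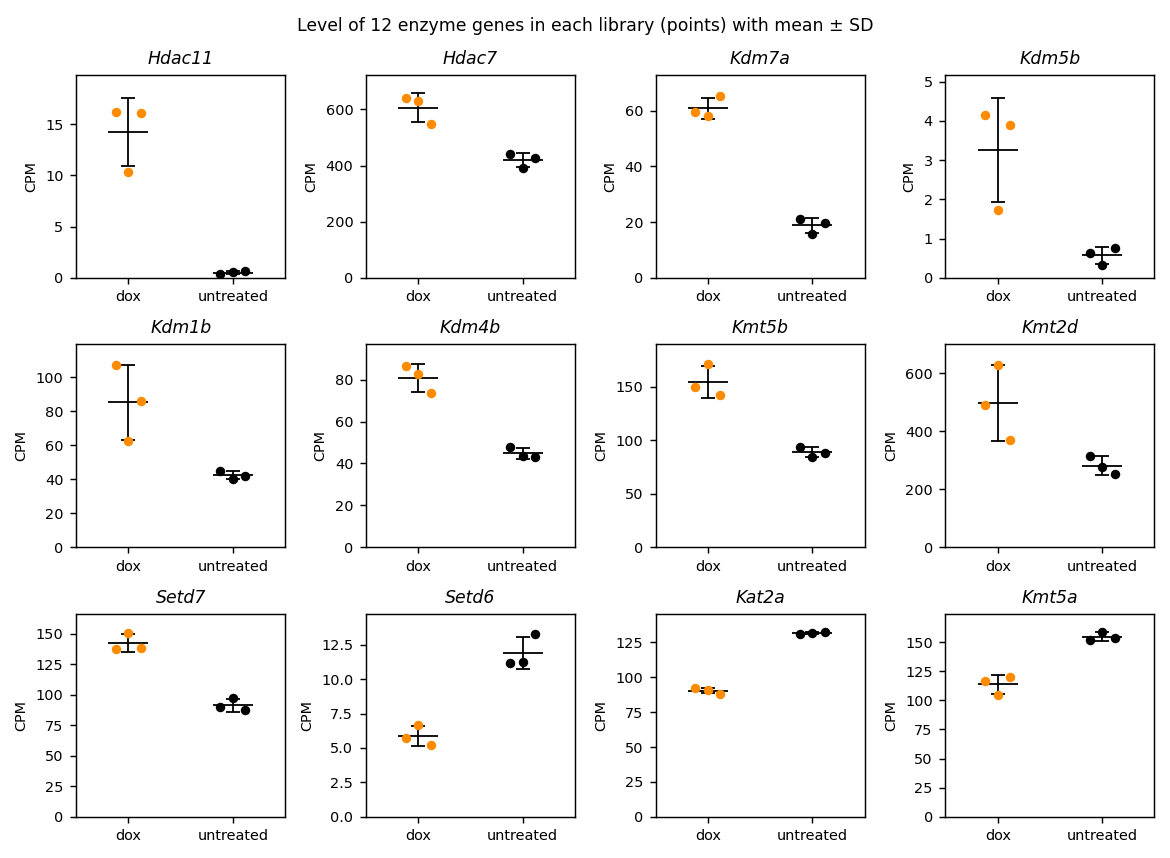
Level of 12 enzyme genes in each library (CPM, linear axes from 0), with dox libraries left and untreated libraries right; points are libraries, and lines and bars are the group mean ± SD (n = 3 each). Hdac11 and Kdm7a are far above their untreated levels after dox, and Setd6 and Kat2a are below theirs in every dox library.

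Acetyltransferases of the Kat family were evenly divided: 2 of 8 tested genes rose (25.0%, against 27.0% of all genes), 2 fell (25.0%, against 26.6%) and 4 were not called, with a median near 0. Both shares were near the background. Summed RPKM was 183 ± 5.78 in dox libraries and 202 ± 4.62 in untreated libraries (SD, n = 3 each). Kat2a, also known as Gcn5, the acetyltransferase of the SAGA and ATAC coactivators, had 92.2, 91.1 and 88.2 CPM in the dox libraries, against 131, 132 and 133 CPM in the untreated libraries. Both groups were tight, and all dox libraries lay below all untreated libraries (log2 fold change -0.54, SE 0.06, edgeR adjusted p = 9.43e-05). Kat7, which acetylates histones H3 and H4 within Jade or Brpf complexes, had 93.3, 103 and 87.9 CPM in the dox libraries, against 117, 133 and 131 CPM in the untreated libraries, also without overlap (log2 fold change -0.42, SE 0.08, edgeR adjusted p = 0.00224). Kat6b, a histone H3 acetyltransferase of the Moz and Morf pair, had 43.0, 50.8 and 39.2 CPM in the dox libraries, against 31.4, 35.1 and 32.4 CPM in the untreated libraries, without overlap (log2 fold change 0.43, SE 0.10, edgeR adjusted p = 0.00691). Kat2b, also known as Pcaf, the paralog of Kat2a, had 71.6, 64.1 and 66.3 CPM in the dox libraries, against 64.4, 52.7 and 50.8 CPM in the untreated libraries. Its groups overlapped, since dox replicate 2 lay below untreated replicate 1 (log2 fold change 0.27, SE 0.10, edgeR adjusted p = 0.0482). That call was lost in 9 of 16 alternative settings, among them those without dox replicate 1 or 3 and without untreated replicate 2 or 3. A Kat2b pseudogene in the table held 120, 114 and 117 counts in the dox libraries and 93, 134 and 99 in the untreated libraries, so reads of the pair may have been shared. Kat5 (-0.07), Kat6a (-0.02), Kat8 (0.12) and Kat14 (0.01) were not called.

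The zinc-dependent deacetylases moved in both directions: 5 of 11 tested Hdac genes rose (45.5%, against 27.0% of all genes), 4 fell (36.4%, against 26.6%) and 2 were not called, with a median of 0.43. Hdac11, the single class IV enzyme and known as a remover of long fatty acyl groups from lysine, was nearly silent before dox. It had 246, 149 and 251 counts in the dox libraries, against 5, 8 and 9 counts in the untreated libraries. On the CPM scale these were 16.2, 10.4 and 16.1 CPM in the dox libraries, against 0.349, 0.537 and 0.612 CPM in the untreated libraries, and the lowest dox library was far above the highest untreated one (log2 fold change 4.81, SE 0.28, edgeR adjusted p = 4.90e-06). The difference corresponds to 28.0-fold and was the largest of the 60 enzymes. Dox replicate 2 was the lowest dox library for Hdac11, Kdm5b and Kdm1b and for the neutrophil and macrophage sums. It was also the lowest for other members, such as Hdac1, Hdac2 and Kmt5a, and the highest for some, such as Kmt2a and Kmt2d. Dox replicates 1 and 3 were close for Hdac11 (16.2 and 16.1 CPM) and Kdm5b (4.15 and 3.91 CPM). In the same replicates the neutrophil sum was 486 and 231 CPM, and the macrophage sum 117 and 61.8 CPM. The macrophage sum was above the untreated range in all 3 dox libraries, and the part of myeloid cells in the Hdac11 and Kdm5b rises was not tested.

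Class IIa deacetylases, which shuttle between nucleus and cytoplasm and have weak activity of their own, rose in part. Hdac7, a repressor known for guarding B-lineage identity in progenitors and the member with the highest level per length, had 642, 629.8 and 548 CPM in the dox libraries, against 439.8, 392 and 426 CPM in the untreated libraries. It reached 147 ± 12.4 RPKM in dox libraries, against 102 ± 5.96 RPKM in untreated libraries (SD, n = 3 each), without overlap (log2 fold change 0.53, SE 0.08, edgeR adjusted p = 0.000666). Hdac5 had 134, 136 and 147 CPM in the dox libraries, against 101, 95.1 and 104 CPM in the untreated libraries, also without overlap (log2 fold change 0.48, SE 0.07, edgeR adjusted p = 0.000451). Hdac4 (-0.10) and Hdac9 (0.47) were low and not called. Of the class I enzymes, Hdac8, which deacetylates cohesin, had 57.3, 55.1 and 53.5 CPM in the dox libraries, against 43.1, 37.8 and 33.2 CPM in the untreated libraries and rose without overlap (log2 fold change 0.54, SE 0.10, edgeR adjusted p = 0.00144).

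Hdac1, Hdac2 and Hdac3, the catalytic subunits of the Sin3, NuRD, CoREST and NCoR corepressors, all fell. Hdac1 had 39.0, 38.4 and 39.7 CPM in the dox libraries, against 53.7, 49.1 and 48.8 CPM in the untreated libraries, without overlap (log2 fold change -0.37, SE 0.07, edgeR adjusted p = 0.00209). Hdac2 averaged 74.6 ± 9.36 RPKM in dox libraries and 92.5 ± 1.36 RPKM in untreated libraries (SD, n = 3 each; log2 fold change -0.31). Hdac3 fell least (log2 fold change -0.23, edgeR adjusted p = 0.0191), and its call was lost in 4 of 16 alternative settings, among them those without dox replicate 1 and without untreated replicate 2 or 3. The fall of Hdac2 was lost without untreated replicate 3. The class IIb pair moved in opposite directions, with Hdac6, a tubulin deacetylase, lower (log2 fold change -0.42, edgeR adjusted p = 0.00239) and Hdac10, a polyamine deacetylase, higher (0.43, adjusted p = 0.00248).

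Few sirtuins were called: 2 of 7 rose (28.6%, against 27.0% of all genes), 0 fell by the edgeR test and 5 were not called, with a median of -0.02. At an unadjusted edgeR p under 0.05 only Sirt1 of the 7 was lower, and DESeq2 called 1 lower and voom 0. Sirt7, a nuclear and nucleolar deacetylase of histone H3, had 82.3, 76.1 and 66.9 CPM in the dox libraries, against 58.9, 52.7 and 56.8 CPM in the untreated libraries, without overlap (log2 fold change 0.42, SE 0.09, edgeR adjusted p = 0.00397). Sirt2, a mainly cytoplasmic enzyme that deacetylates tubulin, had 54.1, 50.1 and 49.5 CPM in the dox libraries, against 40.9, 38.4 and 43.4 CPM in the untreated libraries, without overlap (log2 fold change 0.33, SE 0.08, edgeR adjusted p = 0.00632). Sirt1, the best known nuclear sirtuin, missed the threshold (log2 fold change -0.26, edgeR adjusted p = 0.0552) but was called lower in 4 alternative settings of scaling, filter, tool or length and without untreated replicate 3. Of the mitochondrial sirtuins, Sirt4 had a log2 fold change of 0.39 (edgeR adjusted p = 0.0510) and was called higher in 6 of 16 alternative settings, Sirt5 had -0.23 and Sirt3 -0.13. The nuclear Sirt6 had -0.02.

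Paralogs with a shared activity were compared by their shares of the summed RPKM of each of 16 groups of 2 to 4 genes. As background, every dox library lay above every untreated library in 31.2% of all genes tested (CPM) and below in 31.0%. No such rate was taken for paralog groups of other genes. In 13 of the 16 groups the share of at least 1 gene did not overlap between dox and untreated libraries. An exact two-sided permutation test on 3 against 3 libraries gave p = 0.1 for each of these, the smallest value it can reach, so none could pass a threshold of 0.05. In a pair both shares differ by the same size, so either gene could stand for the pair. A larger group is described by the gene whose share differed most among those without overlap. The largest difference was in the lysine 20 pair, where Kmt5b held 42.2%, 44.5% and 44.4% in the dox libraries, against 32.0%, 27.3% and 27.4% in the untreated libraries. Hdac10 held 71.8% ± 1.67 of its pair with Hdac6 in dox libraries and 58.5% ± 0.46 in untreated libraries (SD, n = 3 each, as for all shares that follow). Kdm1b held 29.5% ± 4.57 of the LSD pair in dox libraries and 17.6% ± 1.52 in untreated libraries. Kat2b held 34.4% ± 1.13 of its pair with Kat2a in dox libraries and 23.0% ± 2.43 in untreated libraries. In that pair Kat2a fell without overlap, while the CPM of Kat2b overlapped between the groups.

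Within the Set1 pair, Setd1a held 59.6% ± 0.40 in dox libraries and 68.0% ± 2.31 in untreated libraries. Kdm2a held 80.2% ± 1.45 of the Kdm2 pair in dox libraries and 72.2% ± 1.48 in untreated libraries. Smaller differences were those of Kmt2a within Kmt2a and Kmt2b (53.7% in dox and 48.4% in untreated libraries), of Kdm3a within its pair (40.7% in dox and 35.7% in untreated libraries) and of Setdb1 within its pair (68.8% in dox and 73.0% in untreated libraries). Kdm5c held 68.9% of the Kdm5 genes after dox and 74.3% without it, Kdm4b 25.3% of the Kdm4 genes after dox and 20.5% without it, and Kat6b 15.5% of its pair after dox and 11.9% without it. Hdac4 made up 1.24% of the class IIa genes in dox libraries and 1.89% in untreated libraries, while Hdac7, with 77.4% in dox and 76.3% in untreated libraries, overlapped. The groups overlapped for Kmt2c with Kmt2d, Kdm6a with Kdm6b, and Hdac1 with Hdac2, whose members moved in the same direction and by similar sizes. The shares were not corrected for the trend of change with gene length.

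**Figure D4:**
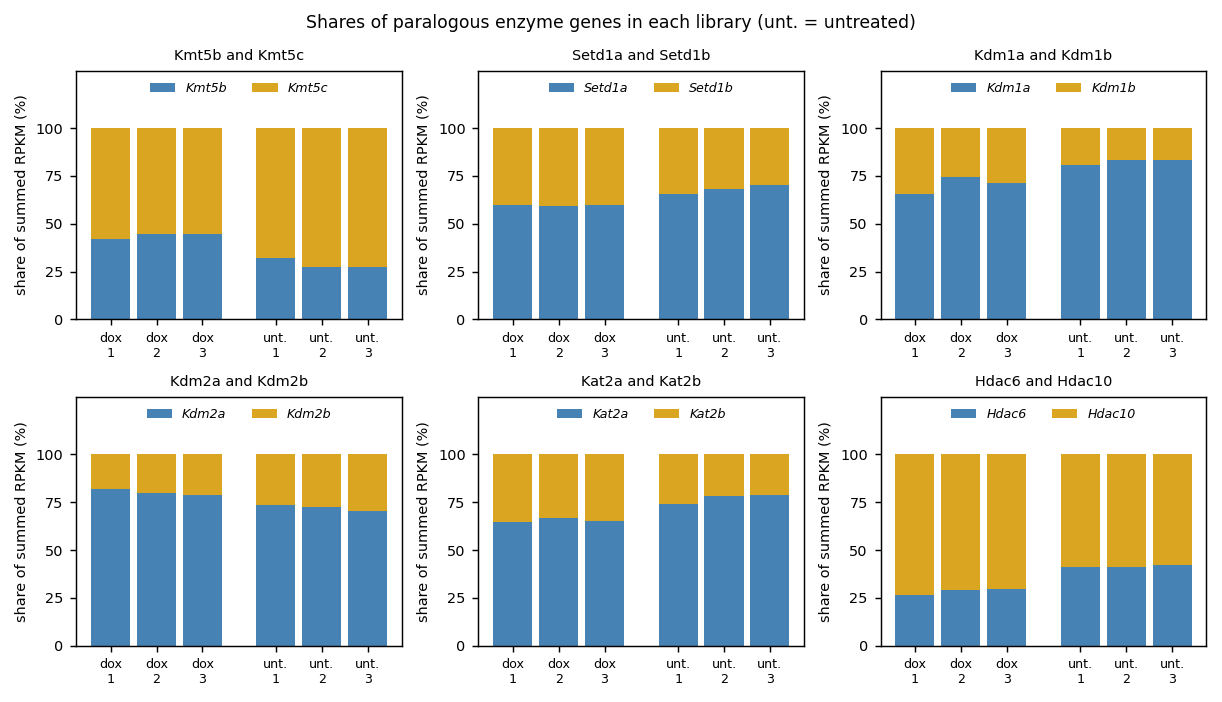
Share of each paralog in the summed RPKM of its group (%), for each dox library (left) and each untreated library (right). Kmt5b, Hdac10, Kdm1b and Kat2b take a larger share in every dox library than in any untreated library.

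Partner genes of the enzymes' complexes fell more often than they rose. Of 12 tested partners of the Set1 and Mll complexes, which carry the Kmt2 and Setd1 enzymes, 0 rose and 9 fell (75.0%, against 26.6% of all genes), with a median of -0.25. Wdr5, the scaffold shared by all of these complexes, had 98.8, 101 and 106 CPM in the dox libraries, against 155, 161 and 156 CPM in the untreated libraries, without overlap (log2 fold change -0.63, SE 0.06, edgeR adjusted p = 5.03e-05). Psip1, the chromatin tether of the Kmt2a complex, had a log2 fold change of -0.67 and Paxip1, a Pax-binding subunit of the Kmt2c and Kmt2d complexes, of -0.69. None of the 12 rose at an unadjusted edgeR p under 0.05 either, while DESeq2 called 0 higher and voom 0.

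Methyltransferases outside the naming rule were mixed, with 6 of 16 higher (37.5%, against 27.0% of all genes), 8 lower (50.0%, against 26.6%) and a median of -0.21. Suv39h1, which trimethylates lysine 9 in heterochromatin, had 83.5, 79.1 and 85.8 CPM in the dox libraries, against 142, 172 and 158 CPM in the untreated libraries (log2 fold change -0.93, SE 0.08, edgeR adjusted p = 2.91e-05). Nsd2, a lysine 36 dimethyltransferase, fell by 0.81 and Smyd5 by 0.77 on the log2 scale. Of 7 other Jumonji genes, 3 rose (42.9%, against 27.0% of all genes) and 1 fell (14.3%, against 26.6%). Jmjd1c (0.52) and Jarid2 (0.43), a subunit of the Polycomb complex that methylates lysine 27, were higher and Riox1 (-0.55) was lower. Of 9 other acetyltransferases, 5 rose (55.6%, against 27.0% of all genes) and 4 fell (44.4%, against 26.6%). Hat1, which acetylates new histone H4 before its assembly into chromatin, had 58.2, 53.2 and 69.6 CPM in the dox libraries, against 114, 118 and 123 CPM in the untreated libraries (log2 fold change -0.97, SE 0.10, edgeR adjusted p = 5.63e-05), and the next smallest p values were those of Gtf3c4 (-0.49) and Ncoa1 (0.43).

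Partners of the acetyltransferases had 4 of 36 higher (11.1%, against 27.0% of all genes) and 13 lower (36.1%, against 26.6%), with a median of -0.10, and Jade1 (-0.95), Ing5 (-0.81) and Ruvbl2 (-0.78) had the smallest p. Jade1 and Ing5 are scaffold and reader subunits of Kat7 complexes. Partners of the deacetylases had 6 of 39 tested higher (15.4%, against 27.0% of all genes) and 13 lower (33.3%, against 26.6%), with a median of -0.13. Rbbp7 had 152, 148 and 179 CPM in the dox libraries, against 276, 302 and 300.5 CPM in the untreated libraries (log2 fold change -0.88, SE 0.09, edgeR adjusted p = 4.76e-05), and Rbbp4 (-0.64), its paralog among the histone chaperones of the Sin3 and NuRD complexes, fell as well, while Arid4b of the Sin3 complex rose (0.56). Genes that supply or recycle the enzymes' cofactors had 2 of 11 higher (18.2%, against 27.0% of all genes) and 6 lower (54.5%, against 26.6%), with a median of -0.23. Mat2a, which makes S-adenosylmethionine, had 202, 222 and 219 CPM in the dox libraries, against 360.2, 364 and 399 CPM in the untreated libraries (log2 fold change -0.81, SE 0.07, edgeR adjusted p = 3.11e-05), and Ahcy (-0.91), which clears its by-product S-adenosylhomocysteine, fell too.

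Cell division genes, set beside these lists because several of the enzymes and histone chaperones are known to follow the cell cycle, all fell. Of 10 tested, 10 were lower (100%, against 26.6% of all genes), with a median log2 fold change of -1.10. Mcm2, a subunit of the replicative helicase, had 205, 208 and 222 CPM in the dox libraries, against 480.3, 483 and 503 CPM in the untreated libraries (log2 fold change -1.21, SE 0.07, edgeR adjusted p = 3.69e-06), and E2f1 (-1.41) and Cdc6 (-1.40) fell too. The part of cell division in the enzymes' changes was not tested.

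**Figure D5:**
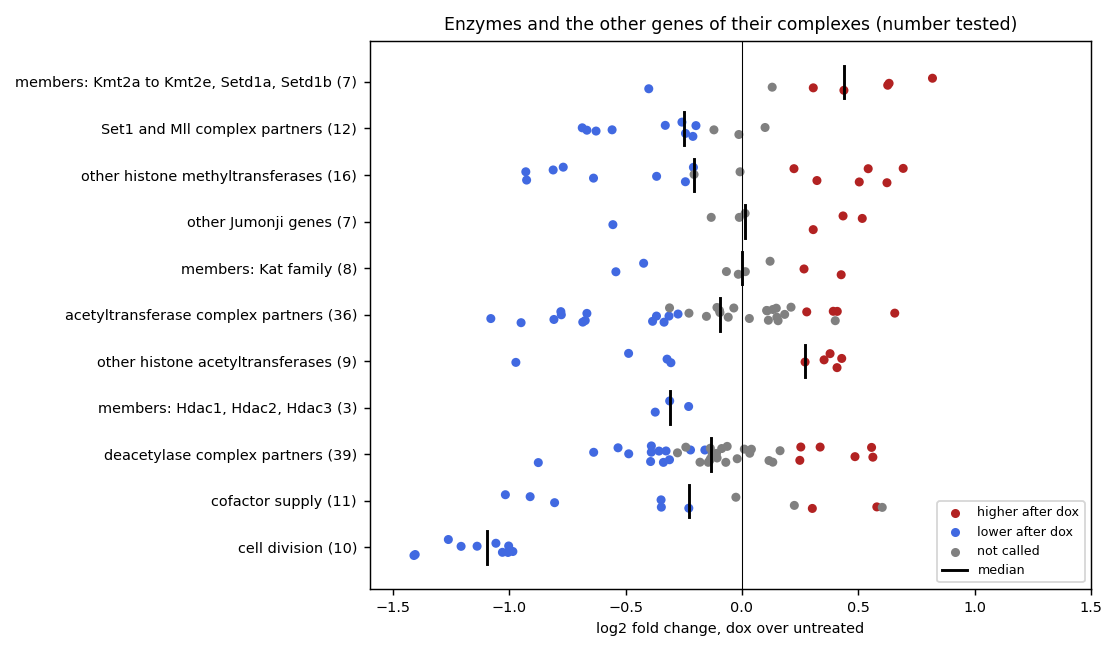
Log2 fold change (dox over untreated) of enzyme groups and of the other genes of their complexes, each point a gene and each vertical bar a median; the number tested is in brackets. Partners of the Set1 and Mll complexes lie mostly left of 0 with a median of -0.25. In the row of their enzymes, Kmt2a to Kmt2e were called higher, Setd1a was lower (-0.40) and Setd1b was not called (0.13). The 10 cell division genes have a median of -1.10.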

How the data were processed

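The 6 RNA-seq libraries were 3 from dox-treated and 3 from untreated mice. The authors deposited whole-number read counts per gene, with Entrez identifiers and a gene length in bases. CASAVA 1.8.2, featureCounts and genome build mm9 are named, per the submitters' processing notes; no source used here names the aligner, gene annotation or strandedness of counting. The per-sample tables equalled the series table. Of 26286 identifiers, 24176 matched a symbol. The enzyme families, the partner, cofactor and cell division lists and the marker lists were chosen with earlier results of these data known.

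Genes passed filterByExpr at a minimum count of 10 (12275 genes), were scaled by TMM and compared between groups, without covariates, by the quasi-likelihood test (edgeR 4.0.16, R 4.3.3) with Benjamini-Hochberg adjustment over all genes tested. CPM use TMM-scaled totals, and RPKM divide them by the deposited length. Counts limit precision most for genes of few reads, such as Kdm5b. Values per library are given for the 5 called genes of smallest p in each family, and for 3 genes of smallest p in each partner list at least the change; a cofactor gene and a marker that this rule names are not reported here. Promoters came from RefSeq (GRCm38.p6) and exon overlaps from GENCODE M21 of another build than the files, so no coordinates were joined to the counts. Alternatives were other scalings, filters and thresholds, DESeq2 1.42.0, voom of limma 3.58.1, a replicate block, a length offset and leaving out each library; a length and GC offset and a 1.5-fold minimum were added after seeing the data.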

Additional observations from a re-analysis of the deposited data

How the results depend on the processing

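Of the 41 called enzymes, 32 kept call and direction in all 16 settings with another scaling, filter, tool, offset or library set (23 higher, 9 lower), and no gene's direction was reversed. The other 9 were Hdac2, Hdac3, Kat2b, Kdm2b, Kdm5c, Kdm6a, Kdm6b, Kmt2b and Setd3. By family, Kat genes called higher were 1 with DESeq2 size factors, with total counts alone, with no filter, with either offset and at an adjusted p under 0.01. Kdm genes called lower were 1 with upper quartile scaling, DESeq2 and an adjusted p under 0.01. Sirt genes called lower were 1 (Sirt1) with total counts alone, no filter, DESeq2, the replicate block and the length offset. At an adjusted p under 0.01, Hdac genes called lower were 2. With a minimum of 1.5-fold, 1785 genes were higher and 1445 lower, the enzymes 10 and 1, Kdm genes higher 4, Hdac genes 1 and 0, Kat genes 0 and 0, Setd genes lower 1, and Kmt lower, Kdm lower and Sirt higher 0. Leaving out 1 library gave 25 to 27 enzymes higher and 10 to 12 lower, with Kat higher 1 to 2, Setd higher 1 to 2, Kdm lower 1 to 2, Hdac lower 2 to 4 and Sirt lower 0 to 1. No label says that the replicate numbers pair the samples. After each gene was centred within its group, same-numbered libraries correlated at 0.305, 0.288 and -0.037. Differently numbered libraries correlated at between -0.336 and 0.025. These values do not settle whether the samples were paired. A replicate block gave 3434 genes higher after dox and 3356 genes lower after dox, and 28 enzymes higher and 14 lower. The median log2 fold change of all genes was 0.0140 in the main setting and between 0.0084 and 0.0400 in the others. Low counts limit Kdm5b, Kdm4d and Kdm5d most.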
